A study of Mus musculus with 8 samples.

Results

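The genes described are the subunits of the transcription factor NF-kB and the inhibitors that NF-kB itself switches on, chosen by name: Tnfaip3, Tnip1, Nfkbia, Nfkbie, Nfkbiz, Birc3, Nfkb1, Nfkb2, Rela and Relb. Of these 10 listed genes, 9 were measured, out of 22180 named genes on the array, and Nfkb1 was not analysed here. Each of the 9 had 1 probe set. Expression was measured on 8 Affymetrix arrays of STING-/- mouse embryonic fibroblasts (MEFs), labelled as primary cells. STING is the adaptor that passes on the alarm for DNA in the cytosol, and all 8 cultures lacked the cells' own gene for it. They had been given back either nothing (empty pBabe vector), hSTING (wild-type STING in the design text), N154S (called there a SAVI mutant, after an inherited inflammatory disease) or R284S. The 4 lines were each sampled once as control cells and once after 9 h with double-stranded DNA (dsDNA) in Lipofectamine 2000. There was 1 array per line and treatment, so no SD is given, and each line was 1 cell population, so a difference between lines includes any other difference between these populations. The labels do not say whether control cells received the reagent without DNA.

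NF-kB is a family of dimers, among them Rela with the product of Nfkb1 and Relb with the product of Nfkb2, that inhibitors of the IkB family hold inactive in the cytoplasm. Upstream kinases mark the IkB proteins for degradation, the dimers enter the nucleus, and among their first targets are the genes of their own inhibitors, which close a negative feedback loop. STING activates the kinase TBK1 and through it the interferon factor IRF3, and it also activates NF-kB, which in fibroblasts drives cytokine and chemokine genes. Because the inhibitor genes are direct targets, their mRNA is a common readout of NF-kB activity, although mRNA does not measure the protein or the activity itself.

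The bases before the gene starts are shown first, because 5 of these genes hold a match to the kappa B consensus, the DNA word that NF-kB dimers bind, close to their start. RefSeq windows of 250 bases before an annotated start (build GRCm38.p6) were found for 7 of the 10 listed genes, and Nfkbiz, Relb and Nfkb1 had none. The degenerate 10-base kappa B consensus was searched on both strands, with overlapping matches merged into 1 region. Capitals mark the matches, and sequences run 5′ to 3′ and, for the first 3, end at the base before the start.
Tnfaip3, chr10:19015411-19015570, minus strand: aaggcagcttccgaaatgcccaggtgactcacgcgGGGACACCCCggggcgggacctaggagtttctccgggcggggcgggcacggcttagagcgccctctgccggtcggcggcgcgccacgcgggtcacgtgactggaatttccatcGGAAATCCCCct
Nfkbia, chr12:55492648-55492807, minus strand: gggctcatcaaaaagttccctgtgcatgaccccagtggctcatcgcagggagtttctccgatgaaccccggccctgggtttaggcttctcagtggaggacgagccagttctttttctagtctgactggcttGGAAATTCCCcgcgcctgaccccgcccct
Nfkbie, chr17:45555540-45555699, plus strand: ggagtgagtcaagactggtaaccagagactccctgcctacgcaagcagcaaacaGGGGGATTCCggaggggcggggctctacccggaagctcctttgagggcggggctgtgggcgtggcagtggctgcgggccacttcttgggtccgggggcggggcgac
Tnip1, chr11:54962978-54963007, minus strand: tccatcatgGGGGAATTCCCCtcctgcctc
Nfkb2, chr19:46304689-46304717, plus strand: gatcgtcacGGGAATTCCCCccctcgggg

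Tnfaip3 had 2 regions, from 125 and from 12 bases before its first start, and none before its second start. The region of Nfkbia began 29 bases, that of Tnip1 58 bases and that of Nfkbie 106 bases before the start. Nfkb2 had 3 annotated starts and a match before each, with the region shown beginning 39 bases before the first of them. The windows of Birc3 and Rela held no match. Thus 5 of the 7 genes with a window had a match, against 825 of the 16990 measured genes with a window (4.86%) and 3.9% of all 32851 windows of this length. The interferon-stimulated response element core, GAAANNGAAA, was in 0 of the 7 genes and in 3.40% of the measured genes with a window. Among the other genes that were 2-fold or more higher with dsDNA in hSTING cells, 32 of 335 with a window (9.55%) had a kappa B match. The response element core was in more of these 335 genes, 54 (16.1%). A match is a string of letters and not a binding site.

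**Figure D1:**
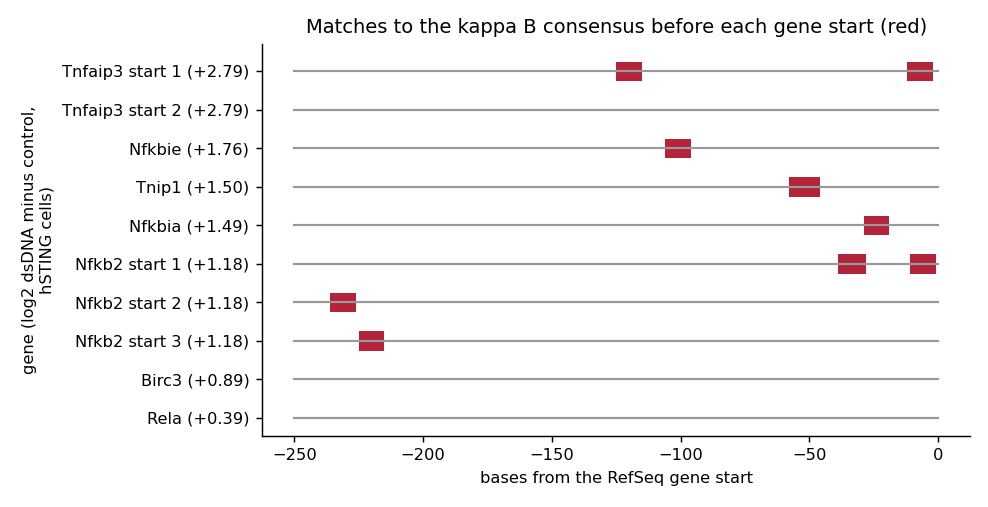
Positions of the merged kappa B consensus matches (red) in the 250 bases before each RefSeq start, by distance from the start in bases; the genes are ordered by their log2 difference between dsDNA and control hSTING cells, given in brackets. Matches lie before Tnfaip3, Nfkbie, Tnip1, Nfkbia and Nfkb2, and none before Birc3 and Rela.

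The deposited values are log2 array signals, and a difference of 1 is 2-fold. Array medians lay between 3.79 and 3.85, and the signals of the 9 genes, 5.06 or more on every array, lay above the 4.42 to 4.47 that was the median named gene. All 10 fibroblast markers were above that median on all arrays. Of the 7 measured leukocyte markers, Cd68 and Cd14 were above it and Ptprc, Adgre1, Itgam and Cd3e below it on all arrays. Of the 4 epithelial markers Krt8 was above it and Epcam and Cdh1 below it on all arrays, and of the 4 endothelial ones Pecam1 and Tek were below it. The summed log2 signal of the fibroblast markers was 104 to 105 in the vector arrays and 96.0 to 96.2 in the R284S arrays, and that of the leukocyte markers was 28.0 to 30.6 over the 8 arrays; the part of either in the results was not tested. With 1 array per group a 2-fold difference has no replicate check and is set beside the share of all genes that passed it, with the brighter array at or above the median of named genes.

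Double-stranded DNA was first compared with control within each line, which asks whether the feedback genes respond to cytosolic DNA and whether they need STING to do so. In hSTING cells 5 of the 9 genes were 2-fold or more higher with dsDNA, namely Tnfaip3, Nfkbie, Tnip1, Nfkbia and Nfkb2, against 2.01% of all genes. In N154S cells Tnfaip3 was 2-fold or more higher, 1 of 9 against 0.379% of all genes. In vector cells and in R284S cells 0 of the 9 were, against 0.149% and 0.0271% of all genes. The median difference of the 9 genes was 1.18 in hSTING, 0.51 in N154S, 0.04 in vector and -0.01 in R284S cells, while the median over all genes lay between -0.01 and 0 in the 4 lines.

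**Figure D2:**
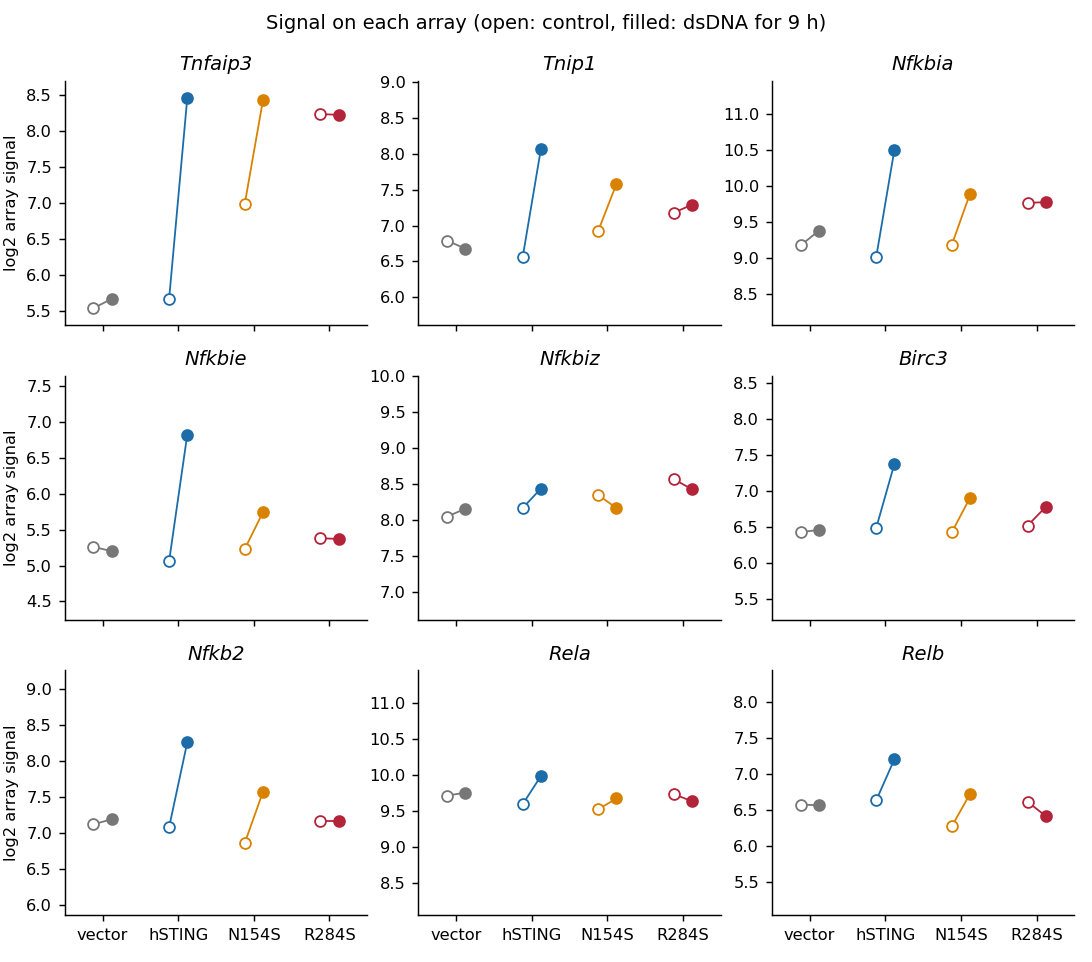
Log2 array signal of each of the 9 genes in the 4 lines, with control cells as open and dsDNA-treated cells as filled circles, 1 array each; every panel spans the same number of log2 units. The steps are steep in hSTING cells, smaller in N154S cells and nearly flat in vector and R284S cells, where Tnfaip3 read 8.24 without and 8.23 with dsDNA.

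Tnfaip3 encodes the ubiquitin-editing enzyme that dismantles signalling complexes upstream of NF-kB, and it had the widest spread of the 9 genes. Control cells read 5.54 with the vector, 5.67 with hSTING, 6.99 with N154S and 8.24 with R284S, and the same lines with dsDNA read 5.67, 8.46, 8.43 and 8.23. The control cultures thus formed a ladder, and with dsDNA the 3 lines with STING all stood near the top while vector cells stayed at the bottom. Its range of 2.92 over the 8 arrays was wider than that of 99.4% of all genes. In hSTING cells it was 6.92-fold higher with dsDNA, rank 60 of 22180, and in N154S cells 2.71-fold, rank 32. In R284S cells the difference was -0.01.

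Tnip1 encodes a ubiquitin-binding partner of the Tnfaip3 product. It read 6.79, 6.56, 6.93 and 7.18 in control cells of the vector, hSTING, N154S and R284S lines, and 6.68, 8.06, 7.58 and 7.29 with dsDNA. The hSTING dsDNA array was the highest, followed by N154S with dsDNA, and the R284S arrays lay between these and the vector arrays. The dsDNA differences were 1.5 in hSTING, 0.65 in N154S, 0.11 in R284S and -0.11 in vector cells.

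Among the IkB genes, Nfkbia encodes the inhibitor that is degraded and resynthesised fastest. It read 9.18, 9.02, 9.19 and 9.77 in vector, hSTING, N154S and R284S control cells, and 9.38, 10.51, 9.90 and 9.78 with dsDNA. The step was 1.49 in hSTING and 0.71 in N154S cells, and R284S cells were at about the N154S dsDNA level with or without DNA. Nfkbie encodes a related inhibitor that acts more slowly, and read 5.26, 5.06, 5.23 and 5.38 in control cells and 5.20, 6.82, 5.74 and 5.37 with dsDNA. Here the hSTING dsDNA array stood alone, 1.08 above the next array, with a 3.39-fold dsDNA difference in hSTING cells. R284S cells were within 0.17 of vector cells for Nfkbie and 0.40 to 0.59 above them for Nfkbia.

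Nfkbiz encodes an atypical nuclear member of the IkB family that acts as a coactivator at some cytokine genes, and it followed neither pattern. It read 8.05, 8.17, 8.35 and 8.57 in vector, hSTING, N154S and R284S control cells, and 8.16, 8.44, 8.17 and 8.43 with dsDNA. Its highest array was the R284S control, and its range of 0.52 was wider than that of 45.9% of all genes. Birc3 encodes a ubiquitin ligase of the tumour necrosis factor receptor complex that restrains the alternative NF-kB pathway. It read between 6.43 and 6.52 in the 4 control cultures, and 6.46, 7.38, 6.91 and 6.78 with dsDNA in vector, hSTING, N154S and R284S cells. Its difference of 0.26 in R284S cells was the highest of the 9 genes in that line.

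Of the 3 measured subunit genes among the 9, Nfkb2, whose long precursor is itself an inhibitor until it is cut, had the widest range. It read 7.12, 7.08, 6.86 and 7.16 in vector, hSTING, N154S and R284S control cells, and 7.19, 8.26, 7.57 and 7.16 with dsDNA, a difference of 1.18 in hSTING and 0.71 in N154S cells. Relb, its usual partner, read 6.28 to 6.64 in control cells and 6.57, 7.21, 6.73 and 6.42 with dsDNA, so that hSTING cells were 0.57 and N154S cells 0.45 higher and R284S cells 0.20 lower. Rela, the main activating subunit, read 9.52 to 9.75 on 7 arrays and 9.98 in hSTING cells with dsDNA. Its range of 0.46 was below the median range of all genes, 0.54. The order of the differences in hSTING cells was therefore Tnfaip3, Nfkbie, Tnip1, Nfkbia, Nfkb2, Birc3, Relb, Rela and Nfkbiz. This order rests on single arrays without replicates, so close values cannot be ranked against each other. Examples are Tnip1 and Nfkbia at 1.5 and 1.49, and Rela and Nfkbiz at 0.39 and 0.27.

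**Figure D3:**
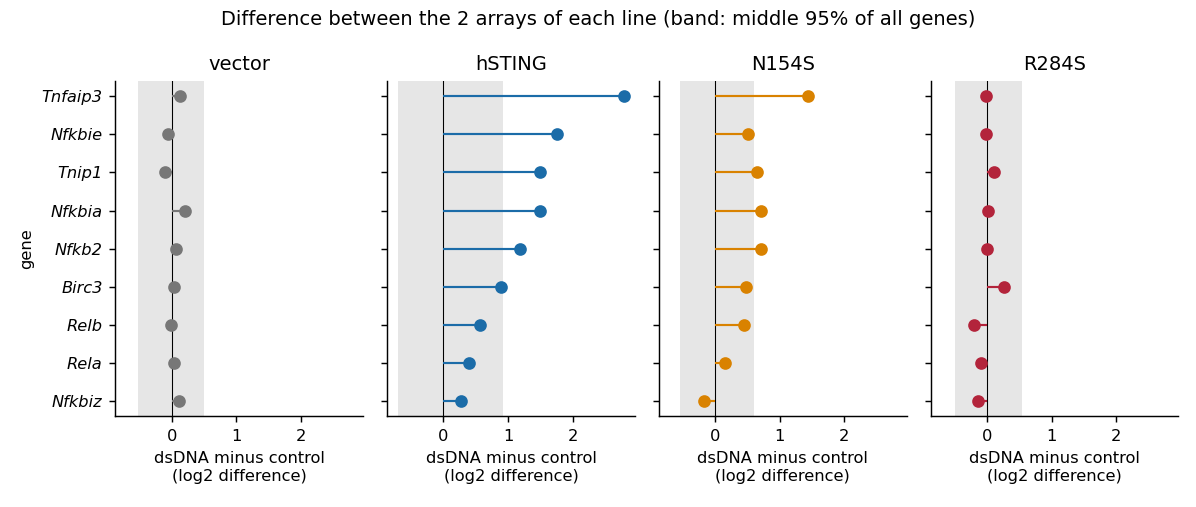
Log2 difference between the dsDNA and the control array of each line for the 9 genes, ordered by the difference in hSTING cells; the grey band holds the middle 95% of all 22180 genes in that line (-0.70 to 0.92 in hSTING cells, -0.49 to 0.54 in R284S cells). In hSTING cells 5 genes lie to the right of the band, in N154S cells 4, and in vector and R284S cells all 9 lie within it.

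In vector cells, which have no STING, the 9 genes differed by -0.11 to 0.20 between dsDNA and control. Interferon-stimulated reference genes differed more in the same pair of arrays, with Ifit1, which binds viral RNA and read below the median named gene in vector control cells, 3.41 higher, the deubiquitinating enzyme Usp18 3.14, the ubiquitin-like modifier Isg15 2.17 and the transcription factor Irf7 1.33. In R284S cells these 4 genes differed by 0.01 to 0.15 between dsDNA and control. Without dsDNA, R284S cells already stood above vector control cells by 7.57 for Ifit1, 5.87 for Usp18, 4.72 for Isg15 and 4.39 for Irf7.

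Whether the dsDNA differences were unequal between lines was tested with limma across all genes. No member passed at an adjusted p of 0.05 in the 2 tests of this question. For hSTING cells against the other 3 lines, a contrast chosen with earlier results of these data known, 0 of 9 members passed against 0.0316% of all genes, and 6 members had an unadjusted p under 0.05, as did 2476 of all 22180 genes. The extra dsDNA difference in hSTING cells was 1.61 for Nfkbie (SE 0.28, limma adjusted p = 0.207), 2.27 for Tnfaip3 (SE 0.57, limma adjusted p = 0.295), 1.28 for Tnip1 (SE 0.32, limma adjusted p = 0.289) and 1.18 for Nfkbia (SE 0.30, limma adjusted p = 0.303). When eBayes was run with a trend and robust variances, Nfkbie passed, as 1 of 341 genes called (limma adjusted p = 0.0152, the lowest of a range over the alternatives that reached 0.650). For the 3 lines with STING against vector cells 0 of 9 members and 0% of all genes passed, and 0 members and 798 genes had an unadjusted p under 0.05. The residual of these fits had 2 degrees of freedom, and on simulated data for the hSTING contrast the test found 0 of 100 genes with a difference of 1 and 45 of 100 with a difference of 2.

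The dsDNA difference averaged over the 4 lines was 1.09 for Tnfaip3 (SE 0.44, limma adjusted p = 0.459), 0.60 for Nfkbia (SE 0.23, limma adjusted p = 0.457) and 0.42 for Birc3 (SE 0.14, limma adjusted p = 0.454). Here 0 of 9 members and 0% of all genes passed, while 4 members and 2395 genes had an unadjusted p under 0.05. The residual of this fit holds the unevenness of the response between lines.

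The control cultures were then compared, to ask which lines had high feedback genes without added DNA. The 3 comparisons with vector cells share the vector control array. Resting hSTING cells did not differ from vector cells by more than 0.23 for any of the 9 genes, and 0 of 9 were 2-fold or more higher against 0.415% of all genes. The same pair of arrays differed by 6.04 for Usp18, 5.64 for Ifit1, 4.57 for Isg15 and 4.45 for Irf7. In N154S cells 1 of 9 genes, Tnfaip3, was 2-fold or more above vector cells, against 1.01% of all genes, with a difference of 1.45. In R284S cells it was again Tnfaip3, 6.5-fold and rank 45 of 22180, against 1.15% of all genes. The median difference of the 9 genes from vector cells was -0.04 in hSTING, 0 in N154S and 0.12 in R284S control cells.

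R284S was the line in which all 9 genes were above vector control cells, from 0.02 for Rela to 2.70 for Tnfaip3. Nfkbia was 0.59 higher, Nfkbiz 0.52 and Tnip1 0.39, while Nfkbie, Birc3, Nfkb2 and Relb were 0.04 to 0.12 higher. These last genes and Rela were close to no difference. Of all genes, 52.3% had a lower difference than Rela and 67.4% a lower one than Nfkbie. The shared direction of the 9 genes therefore rests in part on differences near 0. Against hSTING control cells, R284S had Tnfaip3 2.57 higher, 1 of 9 genes past 2-fold against 0.703% of all genes, and N154S had it 1.32 higher, 1 of 9 against 0.532%. R284S control cells had higher signals than N154S control cells for all 9 genes, by 0.09 to 1.25, where 1 of 9 was past 2-fold against 0.162% of all genes. This uniform direction rests on 2 arrays, and the median difference of 0.25 is small beside the middle 95% of all genes, which ran from -0.53 to 0.53.

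Over both treatments the lines were compared in the additive limma fit, where 0 of the 9 members passed for any pair of lines. Tnfaip3 came closest, at 2.63 above vector in R284S cells (SE 0.62, limma adjusted p = 0.101) and 2.11 above vector in N154S cells (SE 0.62, limma adjusted p = 0.188). In these 2 contrasts 2.04% and 1.32% of all genes passed, and 2 and 1 members had an unadjusted p under 0.05, as did 3166 and 3296 of all 22180 genes. Without the hSTING control array, or without the hSTING dsDNA array, Tnfaip3 passed in both (limma adjusted p = 0.0202 for R284S and 0.0421 for N154S), the lowest of ranges that reached 0.511 and 0.660 over the alternatives. Against vector, hSTING cells had Tnfaip3 1.46 higher (SE 0.62, limma adjusted p = 0.537) with 0.0992% of all genes and 0 members passing and 2 members and 2058 genes at an unadjusted p under 0.05. For R284S against hSTING 0.951%, for R284S against N154S 0.00902% and for N154S against hSTING 0% of all genes passed, and 0 of 9 members had an unadjusted p under 0.05 in each of the 3, while 3037, 1568 and 1974 of all genes had one. Without the hSTING control array, which leaves dsDNA-treated cells alone to stand for that line, Nfkbie passed for hSTING against vector (1.52, limma adjusted p = 0.0367) and for R284S against hSTING (-1.37, limma adjusted p = 0.0486).

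**Figure D4:**
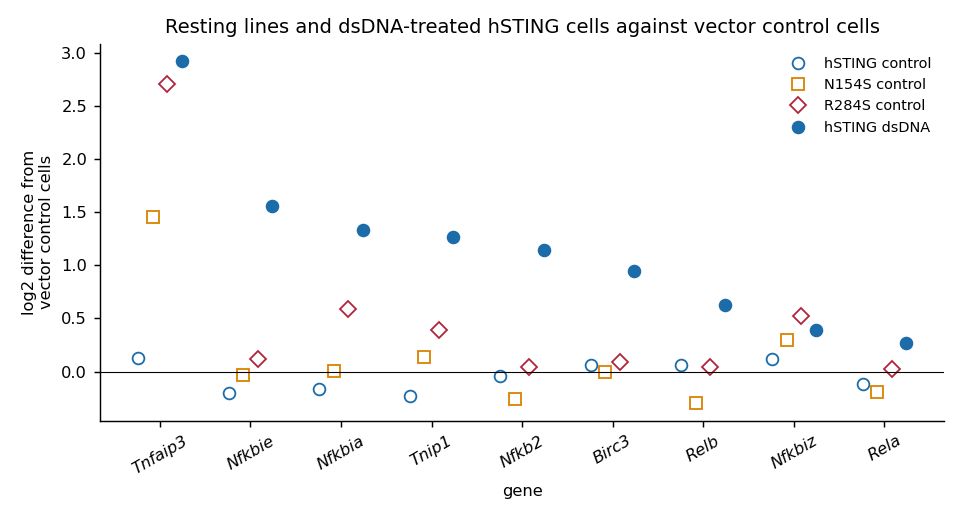
Log2 difference of each of the 9 genes from vector control cells, for control cells of the hSTING, N154S and R284S lines (open symbols) and for hSTING cells with dsDNA (filled circles), 1 array each. Resting R284S cells come near the filled circle for Tnfaip3 (2.70 against 2.92) and stay near 0 for Nfkbie and Nfkb2 (0.12 against 1.56 and 0.04 against 1.14).

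The resting mutants were set beside hSTING cells with dsDNA, arrays that differ in both line and treatment. R284S control cells stood at 92.5% of the log2 distance between vector control and dsDNA-treated hSTING cells for Tnfaip3, 44.4% for Nfkbia, 30.7% for Tnip1, 7.7% for Nfkbie and 3.5% for Nfkb2. N154S control cells stood at 49.7% for Tnfaip3 and 11.0% for Tnip1, and were at -22.8% to 0.8% for the other 3 of these 5 genes. These 5 genes thus stood at very different parts of that distance in each resting mutant. They are the members for which that distance was at least 1, so the choice rests on the distance itself. The members with a shorter distance are left out of these percentages. In R284S control cells 2 of 9 genes, Nfkbie and Nfkb2, were 2-fold or more below dsDNA-treated hSTING cells, against 1.73% of all genes, and in N154S control cells 5 of 9 were, against 1.25%.

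With dsDNA in every line, hSTING cells had 5 of 9 genes 2-fold or more above vector cells, against 2.16% of all genes, and all 9 genes were higher, by 0.23 to 2.79. These comparisons share the hSTING dsDNA array. Both mutants read below hSTING for all 9 genes, though nearly level with it at -0.01 for Nfkbiz in R284S and -0.03 for Tnfaip3 in N154S cells. Of all genes, 46.1% and 43.5% had a lower difference than these. In R284S cells Nfkbie was 1.45 and Nfkb2 1.10 lower, 2 of 9 past 2-fold against 1.74% of all genes, and the median was -0.73. In N154S cells Nfkbie was 1.08 lower, 1 of 9 past 2-fold against 0.559% of all genes, and the median was -0.48. For Tnfaip3 the hSTING, N154S and R284S cells read 8.46, 8.43 and 8.23, and for Nfkbiz 8.44, 8.17 and 8.43.

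The rest of the pathway was read from lists of genes outside the 9. Of the 27 measured NF-kB target genes, 14 were 2-fold or more higher with dsDNA in hSTING cells and 6 in N154S cells. In vector and R284S cells 0 were. The shares of all genes in hSTING, N154S, vector and R284S cells were 2.01%, 0.379%, 0.149% and 0.0271%. With so few genes past 2-fold in vector and R284S cells, the 0 there does not set the targets apart. The list medians were 1.14, 0.40, 0.08 and 0.04 in the same order. Cxcl2, a neutrophil chemokine gene, was 4.09 higher in hSTING, 1.82 in N154S and 0.51 in R284S cells. The cytokine genes Tnf, Csf2 and Il6 were 4.06, 3.62 and 3.02 higher in hSTING cells, and 0.92, 1.36 and 1.35 in N154S cells. Tnf read 7.5 in hSTING and 3.61 in R284S cells with dsDNA. In hSTING control cells Tnf, Cxcl2 and Csf2 read 3.44, 3.33 and 4.13, below the median named gene. In N154S control cells Tnf and Cxcl2 read 4.16 and 3.93, also below it. In resting R284S cells 4 of the 27 targets were 2-fold or more above vector cells, against 1.15% of all genes. These were Ccl5, Il1a, Mmp13 and Lcn2, and the list median was 0.65. In resting N154S cells 3 were, namely Ccl5, Il1a and Mmp13, against 1.01% of all genes, with a list median of 0.46. In resting hSTING cells Ccl5 alone was, 3.86 higher, against 0.415% of all genes, with a list median of -0.06. In the fit over both treatments Lcn2, which encodes an iron-trapping lipocalin, rose by 1.18 in R284S against vector cells (SE 0.12, limma adjusted p = 0.00703) and Ccl5 by 8.23 (SE 0.90, limma adjusted p = 0.00921), and Ccl5 rose in N154S cells by 7.69 (SE 0.90, limma adjusted p = 0.0141). Lcn2 also rose by 1.09 against hSTING cells (SE 0.12, limma adjusted p = 0.0155), and the dsDNA difference of Ccl5 was 3.83 larger in hSTING cells than in the other lines (SE 0.25, limma adjusted p = 0.0312). With each array left out in turn, that last call was lost in 6 of 6 fits (limma adjusted p = 0.233 to 0.615). Ccl5 was lost against vector without either vector array, without the R284S control array for R284S and without either N154S array for N154S. Lcn2 was lost against vector without any one of the vector or R284S arrays, and against hSTING without the hSTING dsDNA array or any one of the N154S or R284S arrays. The estimates of Ccl5 against vector stayed between 6.97 and 9.00 and those of Lcn2 between 1.02 and 1.25.

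Among the other subunits and IkB genes, Rel, the subunit best known from lymphocytes, was 1.2 higher with dsDNA in hSTING cells. Rel was the 1 of 5 past 2-fold, in a list that also holds Ankrd33b, which is neither a subunit nor an IkB gene. It was 0.40, 0.28 and 0.03 higher for Rel in N154S, vector and R284S cells. Over all genes 2.01% were 2-fold or more higher with dsDNA in hSTING cells, the share to set beside the hSTING counts that follow. Of 12 other brakes, Tnip3 and Zfp36, which encodes a protein that destabilises cytokine mRNA, were 1.18 and 1.42 higher in hSTING cells, and of 12 adaptors and ubiquitin ligases Myd88 and Peli1 were 1.42 and 1.43 higher. None of the 10 measured genes listed as IkB kinases and upstream kinases was past 2-fold with dsDNA in the 4 lines. The list medians lay between -0.04 and 0.09. That list includes Ikbkg, Tab1, Tab2 and Tab3, which encode partner proteins of kinases. Tbk1 was 0.86, 0.30, 0.17 and 0.10 higher with dsDNA in hSTING, N154S, vector and R284S cells. In hSTING cells Ikbke differed by 0.52, Irak1 by -0.49 and Tab1 by -0.41. Ikbke, a kinase related to Tbk1, was 1.07 higher in resting N154S than in vector cells, and the brake N4bp1 1.15 higher. Past 2-fold in that comparison were 1.01% of all genes. Resting R284S cells were 0.84 and 0.94 above vector cells for Ikbke and N4bp1, and resting hSTING cells 0.42 for each. Of the 10 receptors, Tlr3, Tlr2 and Cd40 were 3.30, 2.77 and 2.01 higher with dsDNA in hSTING cells, and Tlr3 was also 1.08 higher in vector cells. The interleukin 1 receptor gene Il1r1 fell in N154S and R284S against vector cells over both treatments, at -1.56 (SE 0.25, limma adjusted p = 0.0379) and -1.53 (SE 0.25, limma adjusted p = 0.0323). Both calls were lost without any one of the vector or N154S arrays, and that for R284S also without the R284S control array, with estimates between -1.89 and -1.17. Il1r1 was also lower in hSTING than in vector cells, at -0.99, without passing (SE 0.25, limma adjusted p = 0.412).

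**Figure D5:**
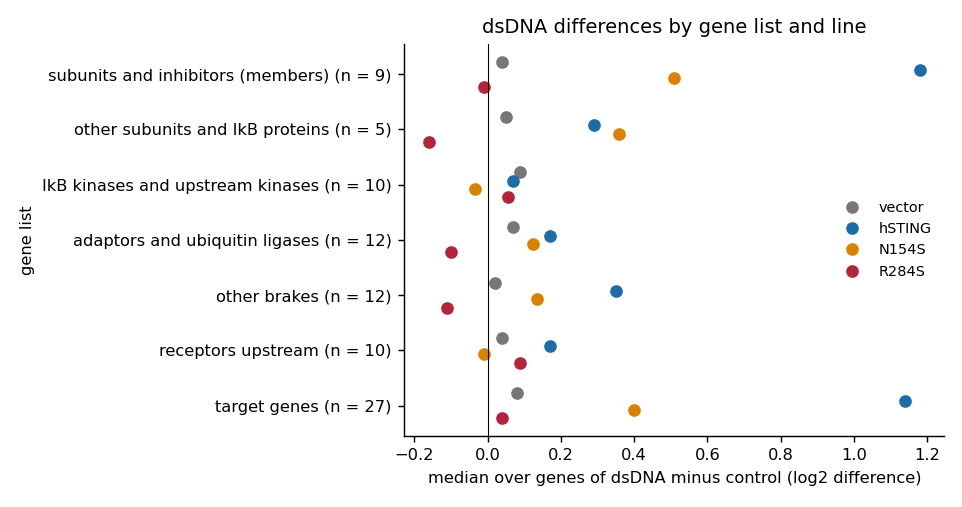
Median over the genes of each list of the log2 difference between dsDNA and control arrays, for the 4 lines; n is the number of measured genes. The 9 subunit and inhibitor genes and the 27 target genes have the highest medians in hSTING cells, 1.18 and 1.14. The medians of the kinase list, which includes partner proteins of kinases, lie between -0.04 and 0.09 in all 4 lines. The list of other subunits and IkB proteins includes Ankrd33b, which is neither.

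Profiles over the 8 arrays were compared by Pearson's r, as a description in which all genes share the same 8 arrays and their processing. Over the 36 pairs of the 9 genes r ran from 0.12 to 0.96, with a median of 0.79. Nfkbie and Nfkb2 were the most alike at 0.96, and Nfkbiz and Relb the least. Tnfaip3 had an r of 0.30 with Rela and 0.34 with Relb. Outside the 9 genes, among 2184 genes with a range of at least 1, the profiles most like that of Tnfaip3 were those of Neurl3 (r 0.998), Acod1, Slc25a37, Cxcl11 and Mark1 (r 0.990). Those most like the mean profile of the 9 genes were Pim1 (r 0.997), Mxd1, Ptpn13, Ccl4 and Rgs16 (r 0.985).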

How the data were processed

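Per the labels' protocols, 300 ng of total RNA a sample went into the GeneChip WT PLUS kit. The authors deposited log2 signals of 41345 probe sets on 8 arrays. Affymetrix Expression Console 1.3.1.187 was used, per the submitters' processing notes, with an algorithm not given in the sources used here. Sorted values of the arrays differed by at most 0.25, so the arrays had been brought to nearly 1 distribution, and a log2 signal compresses large differences. Probe sets with 1 gene symbol (23521) were named through the platform annotation supplied, and per gene the one with the highest mean was kept, which left 22180 genes. Of the rest, 1814 had several symbols and 16010 were not listed.

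The members and gene lists were chosen with earlier results of these data known, and named genes are the 9 members, list genes past a threshold, 4 interferon-stimulated genes and Ccl5, and the 5 genes nearest in profile. Pairs of arrays were compared without a test. Lines and dsDNA were compared with limma 3.58.1 in R 4.3.3, additive in line and treatment, with 3 residual and 4.03 prior degrees of freedom, and with interaction terms (2 residual degrees of freedom), Benjamini-Hochberg over all genes. On simulated data for R284S against vector, the additive fit found 63 of 100 genes with a difference of 1, 100 of 100 with a difference of 2 and 13 false calls among 22180 genes. Nothing says whether cultures were separate, and the p-values set a mean difference against the unevenness of the dsDNA response and not against replicate cultures. Promoter windows are RefSeq's (GRCm38.p6).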

Additional observations from a re-analysis of the deposited data

Results flagged for a closer look

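For Relb the dsDNA difference had opposite signs in different lines, each at least as large as the widest difference of any of the 9 genes in vector cells (0.20), a limit chosen after the data were seen. It was 0.57 in hSTING and 0.45 in N154S cells, and -0.20 in R284S cells. The limma test of hSTING cells against the other 3 lines gave 0.49 for Relb (SE 0.29, limma adjusted p = 0.573), and R284S against hSTING or N154S cells alone was not tested.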

How the results depend on the processing

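With 1.5-fold in place of 2-fold, the genes higher in R284S than in vector control cells went from 1 to 2, in R284S than in hSTING control cells from 1 to 3, and with dsDNA in N154S cells from 1 to 4. In 5 comparisons added to this check after the data were seen, those lower than hSTING cells with dsDNA went from 2 to 6 in R284S cells with dsDNA, from 2 to 6 in R284S control cells and from 1 to 3 in N154S cells with dsDNA. The other 9 of the 15 counts stayed within 1.5 times. Quantile normalization moved no count of members, with a largest shift of 0.08 in any of the 135 differences. The mean of all probe sets and no filter on dim genes could not move these counts. Each of the 9 genes had 1 probe set and read above the median named gene on every array. In the limma fits, eBayes with a trend and robust variances gave 1 member (Nfkbie) where 0 passed for hSTING cells against the other 3 lines, with 341 genes called in place of 7. Leaving out each array in turn gave 0 to 1 members for hSTING, N154S and R284S against vector and for R284S against hSTING. The member was Tnfaip3 for N154S and R284S against vector without either hSTING array, and Nfkbie without the hSTING control array for hSTING against vector (1.52) and R284S against hSTING (-1.37). No other member count moved in the limma fits, with the filter on dim genes among them, and the interaction of a line could not be fitted without either of its arrays. Over the same fits the genes called among all 22180 ran from 0 to 388 for hSTING, 0 to 594 for N154S and 55 to 654 for R284S against vector (22, 292 and 453 with all arrays), and from 2 to 384 for R284S against hSTING (211), and the trend with robust variances gave 31, 726, 854 and 584. The additive fit already compares dsDNA with control within lines. A replicate block could not be added, because there was 1 array per line and treatment. The number of arrays limits the precision: 1 per group, and at most 3 residual degrees of freedom.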
